A study of Bos taurus with 12 samples.

Results

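The genes described here are 10 genes of fibroblast growth factor (FGF) signaling, chosen by their symbols among the 32637 genes of an RNA-seq count table of bovine blastocysts. They are 3 ligands (FGF2, FGF4 and FGF10), the 4 tyrosine kinase receptors (FGFR1 to FGFR4) and 3 feedback genes (SPRY2, SPRY4 and DUSP6), and every one of them has a row in the table. The samples were expanded Bos taurus blastocysts produced in vitro from slaughterhouse ovaries and collected on the seventh or the eighth day after insemination. They fell into 6 female and 5 male pools, none of which received a treatment other than culture. Each pool joined parts of a pair of embryos of the same sex that had been cut, the other part of each embryo being used for sexing by PCR, so a replicate was a pool and not an embryo. A part was meant to hold both inner cell mass (ICM) and trophectoderm, and its share of each was not recorded in the labels. Semen of a pair of bulls was used in rotation, and the labels give neither the bull nor the day of collection of each pool.

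FGFs are secreted proteins that bind FGF receptors together with heparan sulfate on the cell surface. The receptors act through the adaptor FRS2, RAS and the kinases RAF, MEK and ERK, and active ERK induces genes that damp the same pathway, among them the Sprouty genes (SPRY) and DUSP6, a phosphatase of ERK. In mammalian blastocysts FGF signaling is known for guiding cells of the ICM toward hypoblast rather than epiblast, with FGF4 as the epiblast ligand in the mouse, and in ruminants FGF2 is known for stimulating interferon tau in the trophectoderm.

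Levels are given as CPM, the counts of a gene per 1e6 counts of its library after adjustment by edgeR's TMM factors. CPM are not divided by transcript length, so the level of a gene is compared between pools and never with the level of another gene. Between 6664112 and 21392764 reads per pool were counted on genes. For a gene at 0 in a pool, up to 3 counts could have been missed, or 0.145 to 0.413 CPM depending on depth. That limit covers counting error alone, as PCR copies of a molecule cannot be recognised here. In bulk samples, fewer cells of a type and less RNA per cell cannot be told apart. XIST was higher in every female pool than in any male pool, and DDX3Y, EIF1AY, USP9Y and ZFY were higher in every male pool than in any female pool. All 6 ICM marker genes found in the table and all 10 trophectoderm marker genes had enough counts to be tested, while of the 7 hypoblast markers SOX17 and FOXA2 did not. Male replicate 5 stood apart, with the most counts and the fewest genes with counts (14937, against 16985 to 18550 in the other 10 pools). Its summed trophectoderm marker level was 36145 CPM, where the other 10 pools lay between 7879 and 23154 CPM. KRT8 (20142 CPM), LGALS3 (9367 CPM) and KRT18 (3836 CPM) made up most of that sum. KRT8, KRT18, CDX2 and DAB2 were highest in this pool. GATA3 (173 CPM), GATA2 (50.7), TFAP2A (12.1) and TFAP2C (126) were lower than in female replicate 1 (222, 65.0, 27.5 and 159 CPM). LGALS3 was slightly higher in male replicate 2 (9391 CPM), and PTGS2, at 1090 CPM, was below its median of 1289 CPM. Markers of cumulus cells, which surround the oocyte, summed to 17.2 ± 8.53 CPM in females and 14.2 ± 9.63 CPM in males (SD, n = 6 and n = 5, exact permutation test, adjusted p = 0.773).

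The ligands were barely detected. FGF4, a protein-coding gene at 47001981 to 47003919 on chromosome 29, had 0 counts in all 6 female pools and in 3 of the 5 male pools. Its only counts were 1 in male replicate 2 and 3 in male replicate 3, which makes 4 of the 141129547 counts of the 11 pools together. FGF10, at 30504441 to 30601752 on chromosome 20, had 3 counts in male replicate 4 and 0 in the other 10 pools. Neither gene had more than 3 counts in any pool, so these few reads do not set a level for either gene at this depth. The ICM markers were counted in the same pools, NANOG at 9.31 to 292 CPM, POU5F1 at 287 to 737 and SPIC at 55.8 to 536. KLF17 was at 7.22 to 27.2 CPM, LIN28A at 1.74 to 6.74 and SOX2 at 1.68 to 5.45. These levels are not compared with those of FGF4 and FGF10.

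FGF2, at 34801330 to 34860849 on chromosome 17, was counted in 10 of 11 pools, but with more than 3 counts in only 5 of them. The female pools ranged from 0 to 1.10 CPM with a median of 0.113 CPM. The male pools had 0.0827, 0.634, 0.129, 0.556 and 0.775 CPM in replicates 1 to 5. The sexes overlapped over nearly the whole range, the female mean being 0.342 ± 0.439 CPM (SD, n = 6) and the male mean 0.435 ± 0.311 CPM (SD, n = 5). These means differed by 0.0937 CPM (exact permutation test, two-sided, p = 0.71, with 0.00216 the smallest p that 6 against 5 pools allow). Leaving out 1 pool moved this difference between 0.00873 CPM (without male replicate 5) and 0.245 CPM (without female replicate 4). The same exact test gave p = 0.182 for FGF4 and p = 0.455 for FGF10. The FGF2 locus overlaps NUDT6 in the annotation, and reads of the shared stretch cannot be assigned to either gene with certainty, since the strand setting of the counting is not given in the sources used here.

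Among the 18 secreted ligand genes in the table, the 3 above and 15 others, none had more than 3 counts in every pool, 9 had 3 counts or fewer in every pool and 4 had no counts at all. FGF3, FGF6, FGF7 and FGF20 were those without counts. Only FGF9, FGF19 and FGF21 had enough counts for the test between the sexes. FGF9, a ligand with broad receptor use, had from 2 to 35 counts and 0.275 to 1.85 CPM, with counts in all 11 pools. FGF19, which acts as an endocrine factor on the liver in adults, had from 1 to 21 counts. FGF21, a metabolic hormone in adults, had 60 counts (4.36 CPM) in female replicate 3 and 0 counts in 4 of the other females, while every male pool had at least 3 counts.

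**Figure D1:**
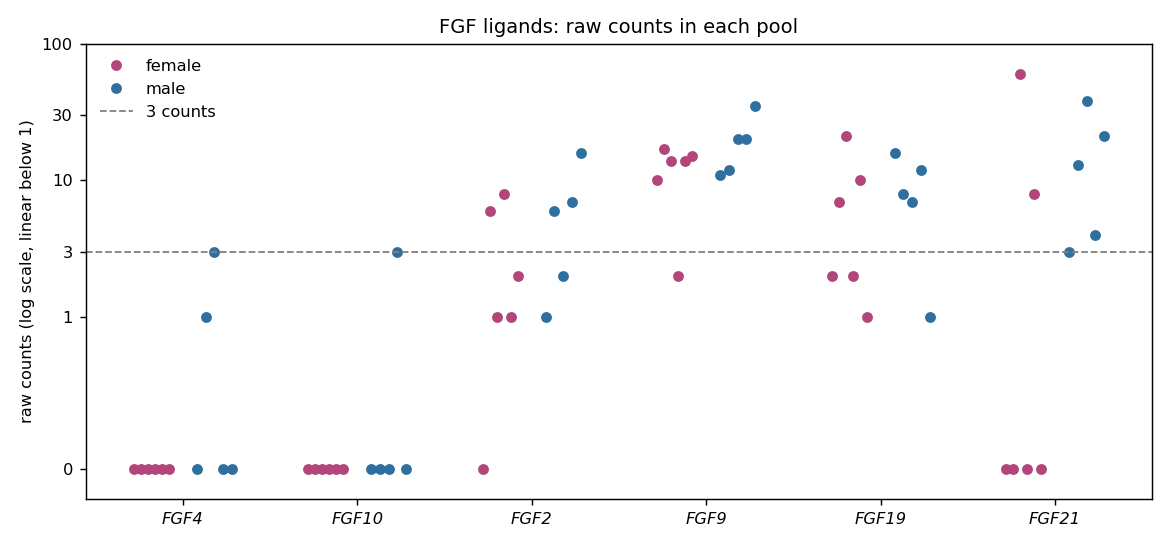
Raw counts of 6 FGF ligands (horizontal axis) in each of the 6 female and 5 male pools (points), on a log scale that is linear below 1. FGF4 and FGF10 do not rise above the dashed line at 3 counts in any pool, and FGF9 is above it in 10 of 11 pools.

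All 4 receptors were detected in all 11 pools and passed the filter on low counts. FGFR1, at 33548428 to 33599029 on chromosome 27, had the fewest counts of the receptors, 19 to 56 per pool. The female pools had from 2.06 to 4.60 CPM of FGFR1 with a median of 2.45, and the male pools had 1.90, 2.22, 3.28, 3.42 and 2.23 CPM. The ranges of the sexes overlapped. The first number after the sex in the library names is called the library number here, and may mark a collection week. The 4 pools of library number 1 lay between 1.90 and 2.28 CPM. Female replicate 6 (2.27 CPM) and male replicate 5 (2.23 CPM), both of library number 3, lay within the same range.

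FGFR2, at 41450677 to 41557736 on chromosome 26, encodes a receptor whose splice forms respond to different FGFs, and gene-level counts do not separate these forms. The female pools had from 2.80 to 10.04 CPM with a median of 7.39, and the male pools had 6.45, 11.9, 7.02, 4.37 and 4.26 CPM. Among all pools, female replicates 1 and 5 were lowest and male replicate 2 was highest, 4.26 times the lowest, and the ranges of the sexes overlapped.

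FGFR3, at 116766308 to 116781167 on chromosome 6, was at 8.75 to 28.5 CPM in females, with a median of 18.2, and at 23.7, 15.9, 14.0, 11.6 and 15.7 CPM in males. The highest and the lowest pool were both female, replicates 5 and 6. FGFR4, at 38575626 to 38586374 on chromosome 7, was at 14.4 to 27.2 CPM in females, with a median of 16.4, and at 22.5, 14.8, 12.2, 11.5 and 7.17 CPM in males. Of the 5 male pools, 3 lay below every female pool, and male replicate 1 lay above 4 of the 6 females.

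The level of FGFR4 was lower in deeper libraries. Across the 11 pools, its log2 CPM had a Pearson r of -0.81 with the log2 of total counts (permutation test, p = 0.00326, adjusted p = 0.0228 over the 7 genes tested) and a Spearman rho of -0.71 (permutation p = 0.0187). For the other 6 genes, r lay between -0.58 (SPRY4) and 0.10 (DUSP6), with adjusted permutation p of 0.221 or higher. Without female replicate 4 and male replicate 5, the farthest from the median depth, the r of FGFR4 was -0.52 (permutation test, n = 9, p = 0.152), so the call rested on these pools together. Without male replicate 5 alone it was -0.70 (permutation test, n = 10, p = 0.0247), and without female replicate 4 alone -0.74 (permutation test, n = 10, p = 0.0148). Within the females r was -0.73 (exact permutation test, n = 6, p = 0.132), near the value over all pools. Female replicate 4 had the highest level of FGFR4 and male replicate 5 the lowest.

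The split of the receptor counts among the 4 genes was compared between pools, where gene length does not enter. FGFR2 took from 5.57% of the receptor counts in female replicate 5 (95% Wilson interval from 3.88% to 7.93%, 503 counts) to 26.7% in male replicate 2 (22.7% to 31.1%, 424 counts), and the intervals, which cover counting error only and belong to the lowest and the highest of 11 pools, did not overlap. FGFR3 took from 24.8% to 56.7% and FGFR4 from 24.4% to 50.8%. The mean share of FGFR4 was 40.9 ± 8.08% (SD, n = 6) in females and 33.9 ± 6.25% (SD, n = 5) in males. None of the 4 shares differed between the sexes beyond the spread between pools (two-sided exact permutation test, lowest p = 0.141, adjusted p = 0.563 over the 4 receptors).

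**Figure D2:**
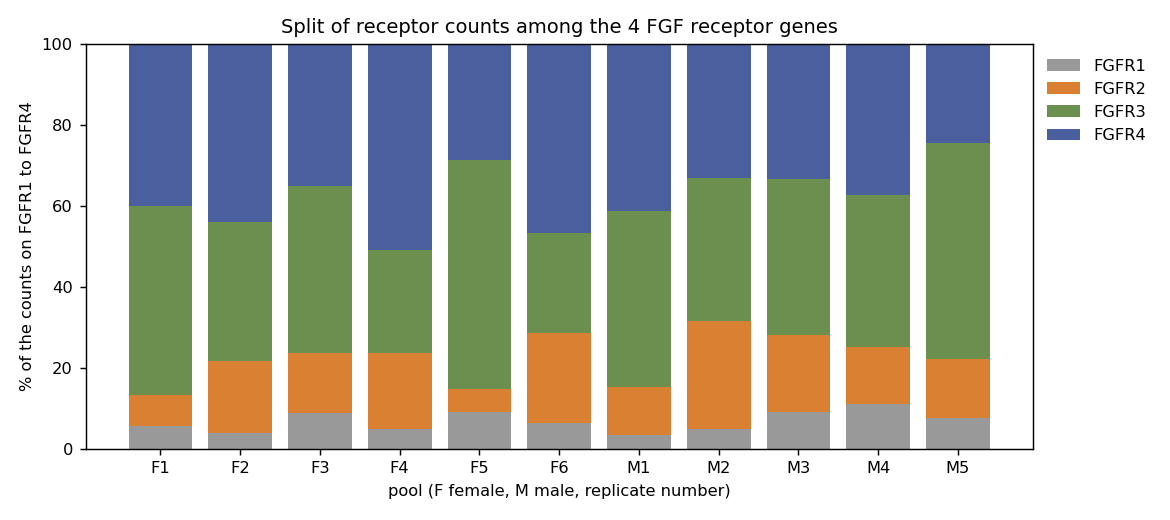
Share of the counts on FGFR1 to FGFR4 (vertical axis, percent) that fell on each receptor gene in each pool (F female, M male, with the replicate number). The share of FGFR2 is smallest in F5 (5.57%) and largest in M2 (26.7%).

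Of the feedback genes, SPRY2, which encodes a Sprouty inhibitor of receptor tyrosine kinase signaling, lies at 55341979 to 55347266 on chromosome 12. It was at 10.4 to 32.9 CPM in females, with a median of 17.3, and at 26.6, 36.4, 31.6, 28.8 and 15.9 CPM in males. The females lay in a low set of 3 pools (replicates 1, 5 and 6, at 10.4 to 12.3 CPM) and a higher set of 3 pools that overlapped the males. SPRY4, a second Sprouty gene at 53336846 to 53351174 on chromosome 7, was at 1.22 to 10.5 CPM in females, with a median of 5.48, and at 5.54, 10.1, 3.35, 3.42 and 2.04 CPM in males. The 8.58-fold range of SPRY4 was the widest of the 7 tested genes, with female replicate 1 lowest and female replicate 4 highest.

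DUSP6, at 19212969 to 19217426 on chromosome 5, had the most counts of the 10 genes, 3263 in all. The female pools had 29.2, 24.9, 8.29, 30.4, 7.40 and 41.0 CPM, and the male pools had 6.37, 30.4, 11.8, 7.07 and 46.2 CPM. No pool lay between 11.8 and 24.9 CPM, and both sexes had pools on either side of this gap, with 5 pools below and 6 above. Each of the 3 library numbers also had pools on either side. The SD of log2 CPM within a sex was 1.14 for DUSP6, larger than for 91.1% of the 12802 tested genes, and 0.97 for SPRY4, larger than for 85.9%. The median over all tested genes was 0.48, and that of FGFR1 was 0.42.

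**Figure D3:**
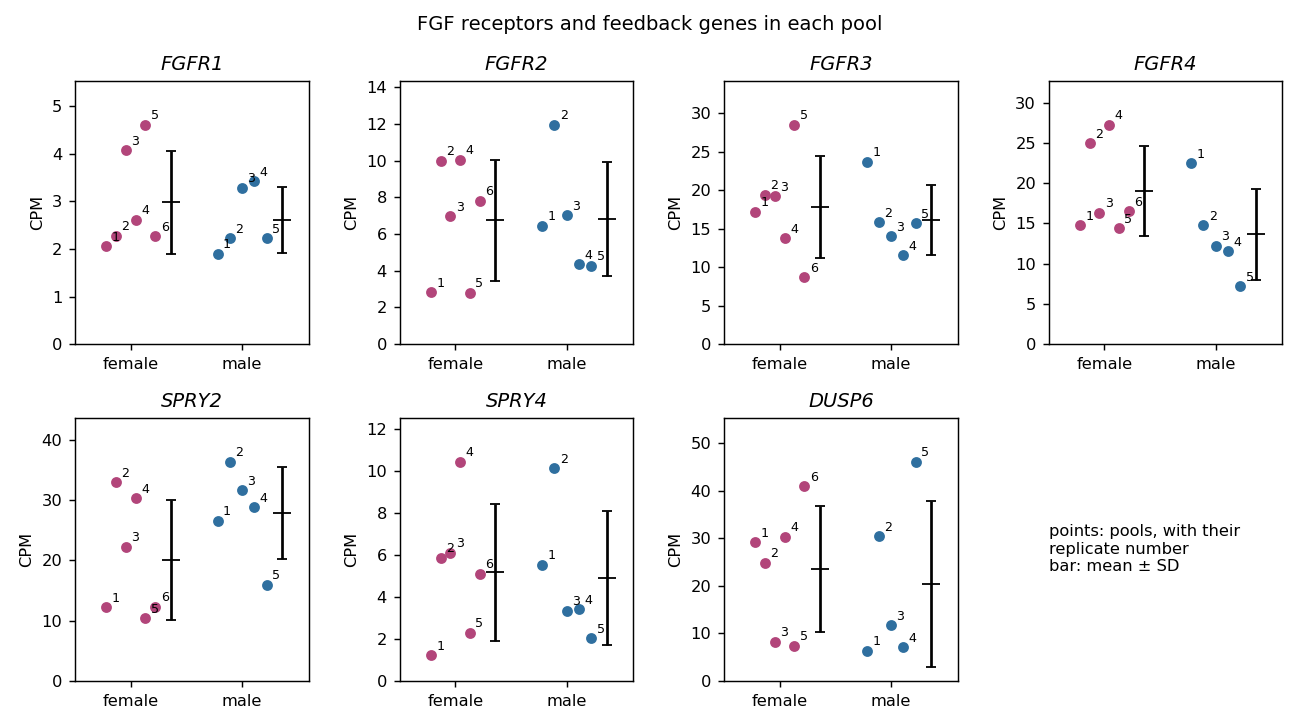
CPM (vertical axes) of the 4 FGF receptors and 3 feedback genes in each female and male pool (points, labelled with the replicate number), with the mean and SD of each sex (bars). The sexes overlap in all 7 genes, and DUSP6 has no pool between 11.8 and 24.9 CPM.

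The comparison between the sexes asked whether these genes differ between female and male expanded blastocysts. The day of collection of each pool is not known, so embryo age may differ between the sexes. Of the 10 genes, the 7 receptors and feedback genes were kept by the filter, and 0 of them were called by edgeR (FDR, the false discovery rate, under 0.1 in the quasi-likelihood test, and more than a 1.5-fold change), where 1.91% of the 12802 tested genes were called. DESeq2 with the library number called 0 of the 8 genes to which it gave an adjusted p (FGF2 and these 7). It called 2.75% of the 23857 genes with a p. That base also holds genes without an adjusted p, such as FGF4 and FGF10, so the share among genes with an adjusted p would be higher. Each of the 20 alternative fits called 0 of the genes it tested, which were these 7 alone in 18 fits and all 10 in 1, and the fits called from 0.672% to 3.11% of all the genes they tested. At an unadjusted p under 0.05, edgeR had 1 of the 7, SPRY2. In none of the 7 were the pools of the sexes without overlap, which was the case for 3.31% of all tested genes.

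The mean of SPRY2 was 20.04 ± 9.89 CPM over the female pools (SD, n = 6) and 27.8 ± 7.59 CPM over the male pools (SD, n = 5). Its log2 fold change was 0.62 ± 0.28 (standard error), with a Benjamini-Hochberg adjusted p of 0.378 in the edgeR fit. The 95% interval ran from just above 0 to 1.23, so a difference of either negligible size or more than the fold change of 1.5 could not be told from these pools. The ICM marker list, summed, reached 738 ± 150 CPM over the female pools (SD, n = 6) and 928 ± 108 CPM over the male pools (SD, n = 5) (two-sided exact permutation test, p = 0.0498, adjusted p = 0.199 over 4 lists), and its part in the value of SPRY2 was not tested. Without female replicate 3, the difference in the ICM sum had an adjusted p of 0.0317 in the same exact test. The ICM sum was mostly POU5F1 (means of 345 CPM in females and 464 CPM in males) and SPIC (286 and 300 CPM). NANOG had means of 83.1 and 138 CPM, KLF17 16.6 and 18.3, SOX2 3.74 and 3.77, and LIN28A 3.48 and 4.02. None of these genes was called by edgeR on its own (lowest adjusted p = 0.418). The relation of SPRY2 to the ICM list, given below, uses the mean log2 CPM of the list instead.

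The mean of FGFR4 was 19.0 ± 5.58 CPM over the female pools (SD, n = 6) and 13.6 ± 5.66 CPM over the male pools (SD, n = 5). Its log2 fold change was -0.51 ± 0.26 (standard error), with an adjusted p of 0.439 in the edgeR fit. With the log2 of total counts as a further covariate, chosen after the values were seen, its log2 fold change was -0.26 (adjusted p = 0.823 from edgeR). SPRY2 rose to 0.87 with the same covariate (adjusted p = 0.339 from edgeR). Depth was not balanced between the sexes, although their ranges overlapped. The deepest library was male replicate 5 (21392764 counts) and the shallowest was female replicate 4 (6664112 counts). How far the covariate also took up a difference between the sexes was not tested. Without the covariate, DUSP6 was at -0.33 (95% interval from -1.62 to 0.96), or -0.92 without male replicate 5. FGFR2 was at 0.016 (95% interval from -0.86 to 0.89). The values of -0.33 and 0.016 bounded the other 5 log2 fold changes. FGFR3, with an interval from -0.82 to 0.46, and FGFR1, with one from -0.90 to 0.62, lay within the same range, as did SPRY4 at -0.033 (-1.21 to 1.15). A difference of 1.5-fold in at least 1 direction lay within each of these intervals.

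The other genes of the pathway gave the same count. Of 95 genes in 7 lists, 94 were in the table, 60 were tested and 0 were called by edgeR, with 30 higher and 30 lower in males and a median log2 fold change of 0.0034, beside 0.0050 over all tested genes. At an unadjusted p under 0.05 there were 3, where 13.2% of all tested genes were under it. DESeq2 called 1, HS3ST1, which adds a sulfate group to heparan sulfate, and edgeR without a filter on low counts (3.11% of genes called) called 1, the glypican GPC4.

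Of the co-receptors and binding proteins, 9 of the 16 in the table were tested. SDC4, a heparan sulfate proteoglycan of the syndecan family, had the smallest p of all the pathway genes, at -0.53 ± 0.20 on the log2 scale (standard error), with an adjusted p of 0.265 in the edgeR fit. The same list held the widest value in the other direction, GPC4 at 1.97, with a standard error of 0.97. GPC4 was at 1.07 without male replicate 2 and at 0.77 with the number of the sample title as the block. The syndecan SDC2 was at 0.40 and the glypican GPC1 at -0.47. Of the heparan sulfate enzymes, 9 of 13 were tested, with the epimerase GLCE at -0.56 (adjusted p = 0.321 from edgeR), EXTL2 at -0.81, NDST1, an N-sulfotransferase, at 0.66 and the chain polymerase EXT1 at 0.44.

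The RAS and ERK cascade was the most completely measured list, with 19 of 20 genes tested, 7 above and 12 below 0 and a median log2 fold change of -0.062. FRS3, an adaptor, was at -0.99, the RAS exchange factor SOS1 at -0.60, SHC1 at 0.19 and NRAS at 0.10 (95% interval from -0.21 to 0.41), the narrowest interval among the pathway genes named here. Of the other feedback genes, 8 of 13 were tested, among them NF1, which switches RAS off, at -0.52, the Sprouty-related SPRED1 at -0.39 and SPRED2 at 0.22, and the phosphatase DUSP7 at 0.25. Of the ERK-responsive transcription factors, 11 of 13 were tested, with JUN at -0.74 (adjusted p = 0.337 from edgeR), ELK1 at -0.92, ETV5 at 0.74 and ELK4 at 0.54. The ligands FGF21 and FGF9 were at 1.57 and 0.33, and FGF12, which stays inside the cell, was at 0.80. None of these values passed the test.

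**Figure D4:**
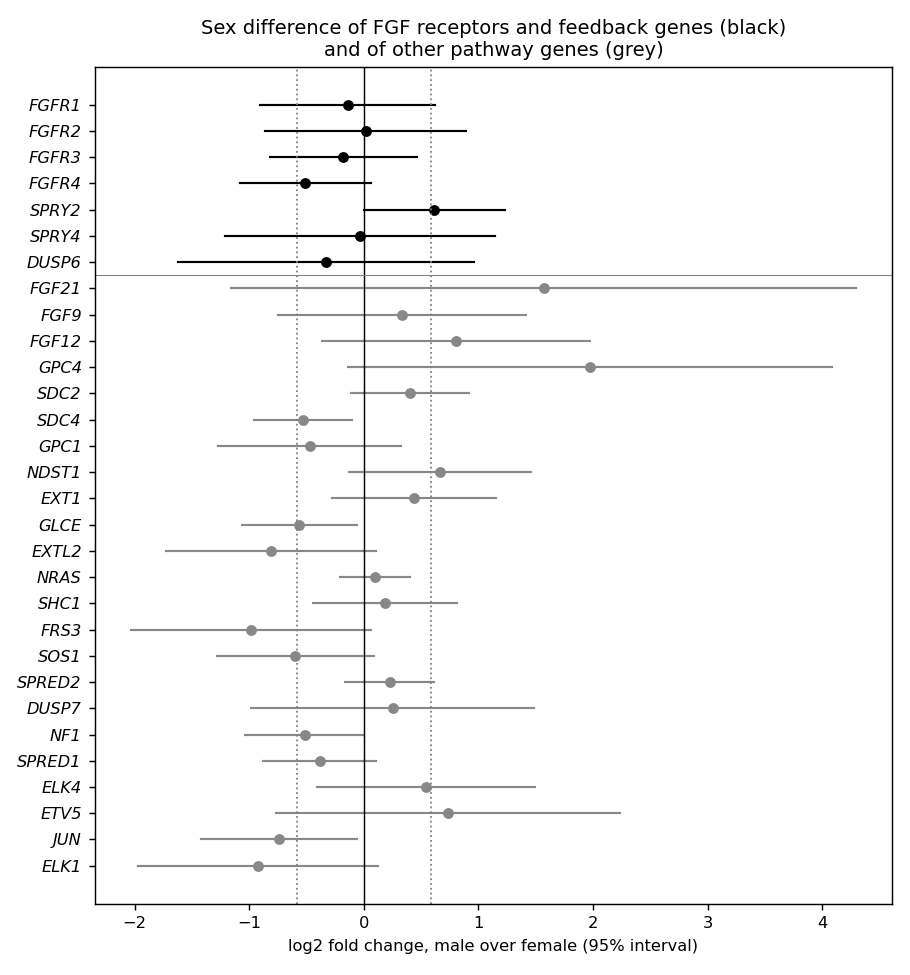
Log2 fold change, male over female, of the 7 tested receptors and feedback genes (black) and of 23 other pathway genes (grey), as points with 95% intervals from edgeR. Dotted lines mark a fold change of 1.5, and none of the genes passed an FDR of 0.1.

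Although the sexes overlapped, the pools differed from each other in a pattern that some of the genes shared. FGFR2 and SPRY4 varied together over the 11 pools, with a Pearson r of 0.91 (permutation test, p = 0.00018, adjusted p = 0.00378 over the 21 pairs of the 7 genes) and a Spearman rho of 0.84 (permutation p = 0.00222, adjusted p = 0.0466). Among the 12802 tested genes, SPRY4 had the highest r with FGFR2, and FGFR2 had the highest r with SPRY4. Female replicates 1 and 5 and male replicate 5 were the 3 lowest pools for both genes, and female replicate 4 and male replicate 2 were the highest pools for both.

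The relation did not rest on a few pools. Without female replicates 1 and 5, the farthest from the median of FGFR2, r was 0.87 (permutation p = 0.00389). Within the 6 female pools r was 0.93 (exact permutation test, p = 0.0208), and the 5 male pools are too few for a value of their own. With the means of the sexes removed r was 0.91, and 0.89 after centring each library number. Leaving out each pool in turn kept it between 0.88 and 0.93.

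Of the other 20 pairs, none had an adjusted p under 0.1. FGFR2 with SPRY2 had an r of 0.73 (permutation p = 0.0123, adjusted p = 0.13), which was 0.43 without female replicates 1 and 5 (permutation p = 0.245), and SPRY2 with SPRY4 one of 0.68 (permutation p = 0.0235, adjusted p = 0.164). With the means of the sexes removed, a setting chosen after the values were seen, these pairs had an r of 0.79 and 0.76 (permutation tests, adjusted p = 0.0482 for both), and FGFR4 had an r of 0.71 with SPRY2 and 0.71 with SPRY4 (permutation tests, adjusted p = 0.0626 for both). DUSP6, the third feedback gene, had an r of 0.27 with FGFR2, -0.13 with SPRY2 and 0.040 with SPRY4, with adjusted permutation p of 0.781 or higher. FGFR1 and FGFR3 had no pair with an adjusted p under 0.1 in either setting.

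The 7 genes were then set against the mean log2 CPM of the ICM, trophectoderm and hypoblast marker lists, which made 21 relations. SPRY4 varied with the hypoblast list, which holds PDGFRA, GATA4, GATA6, SOX17, HNF4A, FOXA2 and COL4A1, with an r of 0.86 (permutation p = 0.00085, adjusted p = 0.00892) and a rho of 0.92 (permutation p = 0.0002). Without the 2 pools farthest from the median of the list, female replicate 1 and male replicate 2, r was 0.74 (permutation p = 0.0219). Within the females r was 0.84 (exact permutation test, n = 6, p = 0.0347). The list mean weighs its genes alike, and SOX17 and FOXA2 lay below the filter on low counts. Female replicate 1 had the lowest and male replicate 2 the highest list mean. Between them GATA4 went from 4 to 26 counts, SOX17 from 1 to 11 and FOXA2 from 0 to 6. PDGFRA went from 58.0 to 192 CPM, HNF4A from 11.4 to 32.0, GATA6 from 180 to 208 and COL4A1 from 22.6 to 28.3. The relations without the genes of few counts were not tested.

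FGFR2 had an r of 0.80 with the same list (permutation p = 0.00332, adjusted p = 0.0232) and a rho of 0.75 (permutation p = 0.0102). Without the 2 farthest pools r was 0.62 (permutation p = 0.0736), and without female replicate 1 alone r was 0.72, with an adjusted permutation p of 0.137. SPRY2 varied with the ICM list, which holds NANOG, SOX2, POU5F1, LIN28A, KLF17 and SPIC, with an r of 0.88 (permutation p = 0.00028, adjusted p = 0.00588) and a rho of 0.85 (permutation p = 0.00174). Without the 2 farthest pools, female replicates 5 and 6, r was 0.81 (permutation p = 0.00537), and within the females it was 0.86 (exact permutation test, n = 6, p = 0.0236). SPRY2 also had an r of 0.73 with the hypoblast list (permutation p = 0.00966, adjusted p = 0.0507), which fell to 0.61 (permutation p = 0.0796) without the 2 farthest pools and was 0.67 without female replicate 1 (permutation test, adjusted p = 0.152) and 0.69 without male replicate 2 (permutation test, adjusted p = 0.126). Whether these values follow the share of each cell type in the cut embryos or the level per cell cannot be told apart in pooled RNA.

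**Figure D5:**
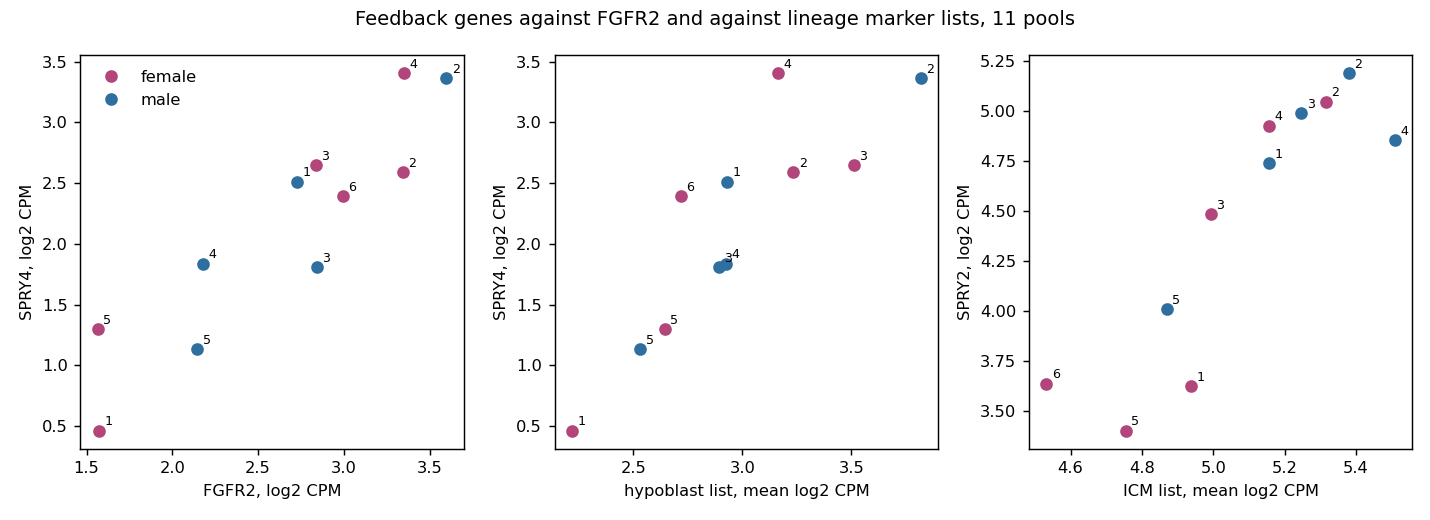
Log2 CPM of SPRY4 against that of FGFR2 (left, r = 0.91) and against the mean log2 CPM of the hypoblast list (middle, r = 0.86), and log2 CPM of SPRY2 against the mean of the ICM list (right, r = 0.88), for 11 pools (points, with replicate number, coloured by sex). Female and male pools lie along the same rising bands.

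Toward the trophectoderm list, which holds the keratins KRT8 and KRT18, the transcription factors CDX2, GATA2, GATA3, TFAP2A and TFAP2C, and LGALS3, DAB2 and PTGS2, the 3 feedback genes had no relation past the threshold. DUSP6 had an r of 0.66 (permutation p = 0.032, adjusted p = 0.134) and SPRY2 one of -0.62 (permutation p = 0.0427, adjusted p = 0.149), while SPRY4 had one of -0.56 (permutation p = 0.0757, adjusted p = 0.221). Without female replicate 1 and male replicate 5, the farthest from the median of the list, r was 0.52 for DUSP6 (permutation p = 0.179), -0.47 for SPRY2 (permutation p = 0.216) and 0.043 for SPRY4 (permutation p = 0.908). With the means of the sexes removed, DUSP6 (r = 0.66) and SPRY2 (r = -0.67) both had an adjusted permutation p of 0.0986. FGFR1 and FGFR3 had no relation to any of the 3 lists with an adjusted p under 0.1.

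The genes whose pattern over the 11 pools was most like each member are given by their r, as a description. For DUSP6 they were LOC508879 (r = 0.96), the integrin subunit gene ITGB5 (0.96) and the interleukin receptor gene IL17RA (0.95), over pools that lay in 2 ranges of DUSP6. For SPRY4 they were IGFBP3, an IGF binding protein gene (0.89), and the cell cycle kinase gene WEE1 (0.87) after FGFR2, and for FGFR2 the kinesin gene KIF3B (0.88) and LOC101905343 (0.86) after SPRY4. SPRY2 was most like FAM217A (0.93), TMEM132D (0.92) and VSNL1 (0.91). FGFR4 was most like LOC112448164 (0.94), LOC101907203 (0.94) and LOC783680 (0.93). FGFR3 was most like MAP3K3 (0.86), GFOD1 (0.85) and RILP (0.84), and FGFR1 like ANKMY2 (0.90), BTBD10 (0.89) and C18H19orf47 (0.88). All points of a pair share their library and its depth.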

How the data were processed

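The RNA of 6 female and 5 male blastocyst pools was made into libraries with the SMART-Seq HT PLUS kit. Trimming by fastp 0.20.0, alignment by STAR 2.7.10b to ARS-UCD2.0 and counting by featureCounts 2.0.3 were done by the authors, and the deposited counts are whole numbers without normalization. A sample sequenced by Iso-seq was not analysed here. Positions come from the RefSeq annotation of ARS-UCD2.0, in which all 10 genes were found. Protein and promoter sequences were not used here.

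The sexes were compared with edgeR 4.0.16 (R 4.3.3), using filterByExpr, TMM factors and the quasi-likelihood test. The library number entered as a block, standing in for the collection week of the study's methods, which the labels do not give. A call needed more than a 1.5-fold change and a Benjamini-Hochberg FDR under 0.1 over all tested genes. A log2 fold change above 0 means more in males. A standard error is the log2 fold change over the root of the F statistic. Log2 CPM used a prior count of 2. Genes below the filter and list sums were compared by exact permutation tests, and correlations by 100000 permutations, or exactly for 6 pools, in python 3.11.15 with scipy 1.17.1. DESeq2 1.42.0 was an alternative. In simulated counts of 12472 genes, 83.9% of the genes shifted by 2 on the log2 scale and 31.2% of those shifted by 1 were called by edgeR, and unchanged genes made up 6.09% of calls. The shifted genes were drawn at random from all tested genes, without differences between library numbers. These shares are therefore not those of the receptors and feedback genes, of which DUSP6 and SPRY4 varied more than most genes.

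All 10 genes are named. Of the other lists, genes called by edgeR and up to 2 genes per list and direction with the smallest adjusted p are named, and HS3ST1 was added after its values were seen. The genes and lists were chosen with earlier results of these data known. The p-values set a difference or a correlation against the variation between pools, and do not cover that between embryos within a pool. Library pairs of one sex correlated between 0.861 and 0.963, and none was a copy.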

Additional observations from a re-analysis of the deposited data

Results flagged for a closer look

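FGF10 in male replicate 4, at 0.238 CPM, stood apart from the other 4 male pools, which were all at 0. With the others at 0, any count in a single pool would stand apart in this way. The value rests on 3 counts, the limit used here for a pool without counts. Of the 26 sets of pools examined this way, chance would mark about 1 in 20.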

How the results depend on the processing

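None of the receptors and feedback genes was called under any of the 20 alternative fits, and FGF2 was tested in a pair of them and FGF4 and FGF10 in 1. The other pathway genes had 1 call with DESeq2 and 1 on every gene with at least 1 count, and 0 elsewhere. Over all genes, the 245 calls became 655 with DESeq2, 743 on every gene with at least 1 count, 86 with library depth as a covariate, and 95 (without male replicate 3) to 364 (without male replicate 5) when one library was left out.

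The fit with no replicate block called 326 genes, and one with the number of the sample title as the replicate block called 132. The correlation of deviations between a female and a male pool ran from -0.11 to 0.35 for the same library number (median 0.00049). It ran from -0.30 to 0.24 otherwise (median -0.051). For the same title number it ran from -0.11 to 0.35 (median 0.028), and from -0.30 to 0.28 otherwise (median -0.042). The ranges overlapped for both numbers, and whether pools of the same number shared a batch was not tested.

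Small log2 fold changes changed sign. FGFR2 was at -0.011 with TMM factors from autosomal genes, -0.10 with library totals and -0.0031 with at least 10 counts in every library. SPRY4 was at 0.020 with the title number as the replicate block and 0.38 with depth as a covariate. Without one library at a time, FGFR1 ran from -0.27 to 0.050, FGFR2 from -0.25 to 0.31, FGFR3 from -0.35 to 0.16, SPRY4 from -0.45 to 0.35, FGFR4 from -0.67 to -0.39, SPRY2 from 0.41 to 0.89 and DUSP6 from -0.92 to -0.049. The cause was not tested.

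The pairs of genes past the threshold numbered 1 in the report, 5 with the sex means removed and 1 to 3 without one library. The relations to marker lists numbered 4, and 2 to 5 without one library. They numbered 3 with a prior count of 0.5, 6 with the sex means removed and 5 with the library number means removed. SPRY2 with the hypoblast list lost its call with a prior count of 0.5 (r = 0.67) and with the library number means removed (r = 0.65). From 0 to 1 marker list differed between the sexes without one library. At this depth FGF4 and FGF10 had 3 counts or fewer in every pool.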
